A study of Mus musculus with 8 samples.

Results

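The genes described here encode the liver transporters that move bile acids and phospholipids between blood, hepatocyte and bile. Chosen by name, they were *Abcb11*, *Abcb4*, *Abcc2*, *Abcg2* and *Atp8b1* at the canalicular membrane, *Slc10a1*, *Slco1a1*, *Slco1a4* and *Slco1b2* for uptake from blood, and *Abcc3* for efflux back to blood. These 10 genes had 15 probes, out of 22911 genes and 32994 probes that could be given a gene symbol, and all 15 probes were well above background on all 8 arrays. RNA came from whole frozen livers of C57BL/6 males at 10 weeks of age, 4 *Agpat3* WT and 4 *Agpat3* KO mice, with 1 array per mouse and no treatment named in the labels. The KO was a global one, so that every cell type of the body lacked the enzyme, and the arrays cannot tell a change that began in hepatocytes from one that began elsewhere. AGPAT3 transfers an acyl chain to lysophosphatidic acid and is needed to make phospholipids that contain docosahexaenoic acid. All WT samples lay in row 1 of the slide and all KO samples in row 2, so row and genotype cannot be told apart. In bulk RNA, fewer cells of a type and less RNA per cell cannot be told apart.

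Bile acids are made from cholesterol in hepatocytes and pumped across the canalicular membrane by ABCB11, the bile salt export pump. ABCB4 moves phosphatidylcholine to the outer leaflet of the same membrane, where bile acids extract it, and the mixed micelles that form protect the bile ducts. Most bile acids return in portal blood and are taken up again through SLC10A1 and the OATP carriers of the SLCO1 family, and the nuclear receptor FXR (*Nr1h4*) adjusts synthesis and transport to the bile acid load.

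The targeted gene checked the labels. The brighter *Agpat3* probe read 5.65, 5.66, 5.80 and 5.88 in WT livers and -0.48, 0.02, -0.58 and -0.47 in KO livers, in log2 signal minus the log2 of the array's 75th percentile, the scale of every level given here. It changed by -6.12 on the log2 scale (KO over WT, as throughout) with an adjusted p of 4.46e-07 from limma. No sample went against its label.

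None of the 10 transporters passed the test between the genotypes. A gene was read from its brightest probe, and a call needed more than a 1.5-fold change in either direction with an adjusted p below 0.2 (limma, Benjamini-Hochberg over all 29068 probes tested). By that rule 0 of 10 transporters were called, where 1.76% of the 14066 genes tested were called (1.01% higher and 0.754% lower in KO). Over all 15 probes of the transporters the count was also 0, beside 1.67% of all probes (0.939% higher and 0.726% lower). No brightest probe reached an unadjusted p under 0.05, whereas 14.0% of all genes did. Of the 15 probes 1 did, a dimmer probe of *Slc10a1*, beside 13.3% of all probes. The WT and KO samples overlapped for each of the 15 probes, while 9.73% of genes and 8.86% of probes had groups that did not overlap. The log2 fold changes of the 10 genes ran from -0.19 (*Abcb4*) to 0.46 (*Slco1a4*), 4 positive and 6 negative, with a median of -0.02, beside a median of -0.03 over all genes tested. For 9 of the 10 genes the 95% interval of the change lay wholly within 1.5-fold in either direction, as it did for 76.2% of all genes, and *Slco1a4* was the exception. Over the 15 probes this held for 13, beside 74.1% of all probes.

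**Figure D1:**
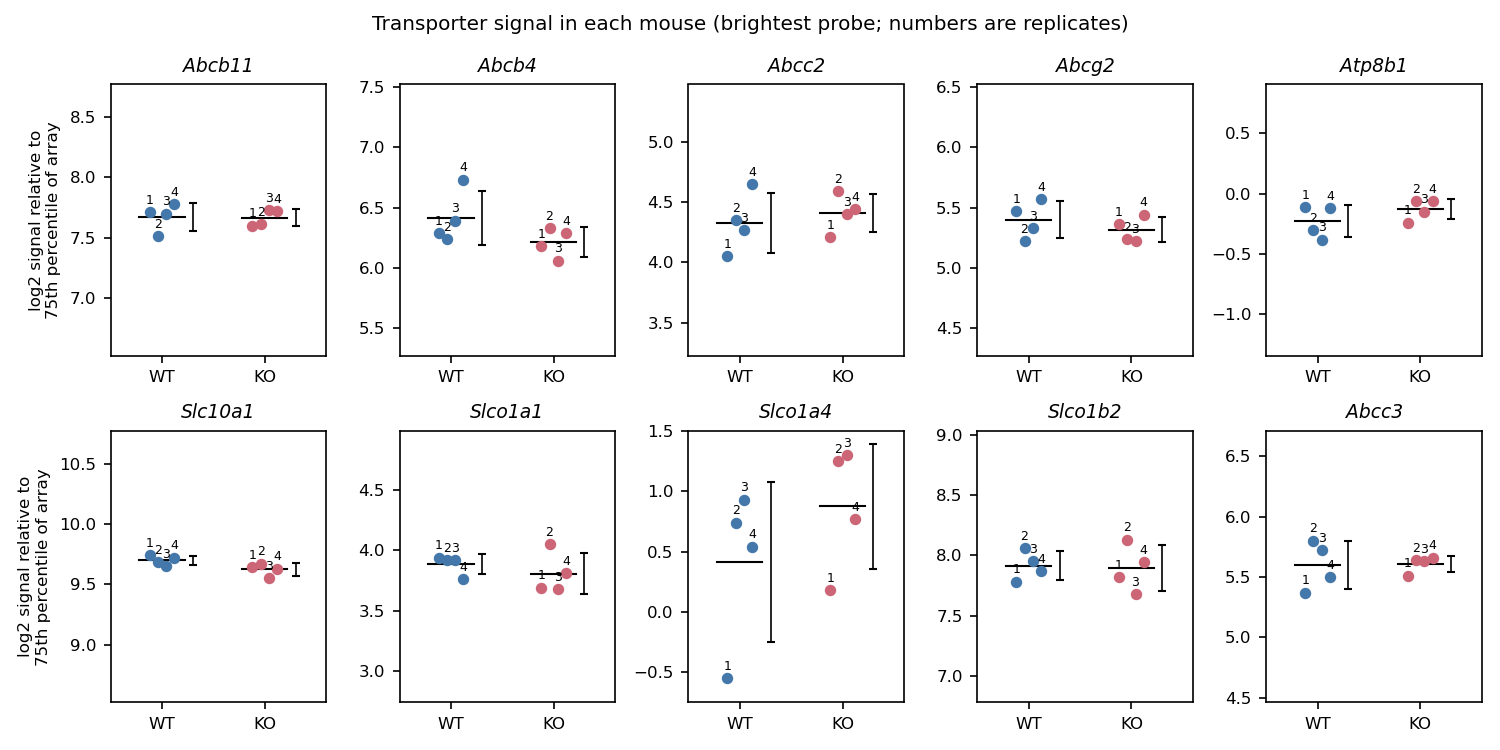
Log2 signal over the array's 75th percentile (vertical axis) in each of 4 WT and 4 KO livers for the brightest probe of the 10 transporters. Points are mice with their replicate number, horizontal lines are means and bars beside the points are 1 SD, and the WT and KO points overlap in every panel, with WT replicate 1 low for *Slco1a4* at -0.55.

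*Abcb11*, the bile salt export pump, had log2 signals of 7.71, 7.51, 7.70 and 7.78 in WT and 7.60, 7.61, 7.73 and 7.72 in KO. The KO values lay within the WT range. The change was -0.01 on the log2 scale (SE 0.08, 95% interval -0.19 to 0.17, adjusted p = 0.973 from limma). Quantile normalization turned it to 0.04, so no direction is given.

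*Abcb4* encodes the floppase that supplies phosphatidylcholine to bile. Its brighter probe read 6.29, 6.24, 6.39 and 6.73 in WT and 6.18, 6.33, 6.06 and 6.29 in KO. WT replicate 4 was the highest sample and KO replicate 3 the lowest, with the other 6 samples between 6.18 and 6.39. On the log2 scale the change was -0.19 (SE 0.12, 95% interval -0.47 to 0.08, adjusted p = 0.541 from limma, exact permutation p = 0.171), the smallest limma p among the brightest probes. Without WT replicate 4 the change was -0.09. A dimmer *Abcb4* probe gave -0.12 with an adjusted p of 0.631. A 1.5-fold lower *Abcb4* signal lies outside the interval of the brighter probe.

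*Abcc2*, which exports bilirubin glucuronides and other conjugates, read 4.05, 4.35, 4.27 and 4.65 in WT and 4.21, 4.59, 4.40 and 4.44 in KO. All 4 KO samples fell inside the WT range. The KO mean was higher by 0.08 (SE 0.14, 95% interval -0.23 to 0.39, adjusted p = 0.844 from limma). Leaving out WT replicate 1 turned it to -0.01.

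*Abcg2*, an exporter of sulfated conjugates and xenobiotics, read 5.47, 5.22, 5.33 and 5.57 in WT and 5.36, 5.24, 5.22 and 5.44 in KO. All KO samples were inside the WT range. The change was -0.08 (SE 0.10, 95% interval -0.30 to 0.14, adjusted p = 0.766 from limma).

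*Atp8b1*, the flippase that keeps aminophospholipids in the inner leaflet of the canalicular membrane, had 2 probes of very different brightness. The brighter one read -0.11, -0.30, -0.38 and -0.12 in WT and -0.24, -0.06, -0.15 and -0.06 in KO, a log2 fold change of 0.10 (SE 0.09, 95% interval -0.10 to 0.30, adjusted p = 0.668 from limma). The dimmer one read -3.32, -4.09, -3.91 and -3.30 in WT and -3.26, -2.96, -3.30 and -3.54 in KO. WT replicates 2 and 3 were low on the dimmer probe. Its log2 fold change of 0.39 (95% interval -0.08 to 0.86, adjusted p = 0.474) is the less precise of the pair (SE 0.21). The lowest signals still well above background lay between -4.54 and -4.00 on the 8 arrays, close to those of this probe. *Tmem30a*, which encodes the subunit that P4 flippases such as ATP8B1 need to leave the endoplasmic reticulum, gave -0.07 (adjusted p = 0.810).

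*Slc10a1*, the sodium-dependent bile acid carrier NTCP, was read by 2 probes listed under different RefSeq transcripts of the gene. The brighter probe read 9.74, 9.68, 9.65 and 9.72 in WT and 9.64, 9.67, 9.55 and 9.63 in KO, the tightest spread of the 10 genes. Its log2 fold change was -0.08 (SE 0.06, 95% interval -0.22 to 0.06, adjusted p = 0.648 from limma, exact permutation p = 0.0571). The dimmer probe read 6.46, 6.44, 6.62 and 6.48 in WT and 6.60, 6.88, 6.68 and 6.92 in KO. Here 3 of 4 KO samples were above every WT sample. That probe had a log2 fold change of 0.27 (SE 0.09, 95% interval 0.06 to 0.48), an unadjusted p of 0.0187 and an adjusted p of 0.269 from limma, so it was not called.

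The 2 *Slc10a1* probes thus had changes of opposite sign, and their difference on each array was compared after these values had been seen. The dimmer minus the brighter probe was -3.28, -3.24, -3.03 and -3.24 in WT and -3.04, -2.79, -2.88 and -2.71 in KO. Only KO replicate 1 reached into the WT range. The mean was -3.20 ± 0.11 in WT and -2.85 ± 0.14 in KO (SD, n = 4 each), a shift of 0.35 with an exact permutation p of 0.0571, and with normexp background correction 0.37 with 0.0286, the smallest p that 70 assignments of 4 and 4 mice allow. Which RNAs each probe bound was not tested. On the mean of both probes the gene had a log2 fold change of 0.10, and no direction is given for it.

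*Slco1b2*, an OATP of the hepatocyte, read 7.78, 8.06, 7.95 and 7.87 in WT and 7.82, 8.13, 7.68 and 7.94 in KO. KO replicates held both the highest and the lowest value. The change was -0.02 (SE 0.11, 95% interval -0.27 to 0.23, adjusted p = 0.947 from limma), turning to 0.04 with quantile normalization.

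*Slco1a1*, an OATP known for higher expression in male than in female mouse liver, read 3.94, 3.92, 3.92 and 3.76 in WT and 3.69, 4.05, 3.68 and 3.81 in KO. The groups overlapped and gave a log2 fold change of -0.08 (SE 0.10, 95% interval -0.30 to 0.15, adjusted p = 0.792 from limma). The dimmer probe gave -0.03 (adjusted p = 0.944).

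*Slco1a4*, an OATP whose substrates include cardiac glycosides and which is known as a target of the xenobiotic receptors CAR and PXR, was the most variable of the 10. It read -0.55, 0.74, 0.93 and 0.54 in WT and 0.18, 1.25, 1.30 and 0.77 in KO. Replicate 1 was the lowest mouse of each genotype, and the KO mean of 0.87 ± 0.52 was above the WT mean of 0.42 ± 0.66 (SD, n = 4 each). Its log2 fold change was 0.46 (SE 0.36, 95% interval -0.37 to 1.29, adjusted p = 0.646 from limma, exact permutation p = 0.343). Leaving out WT replicate 1 brought it to 0.14, and leaving out KO replicate 1 to 0.69. The interval takes in both a fall of less than 1.5-fold and a rise of more than that.

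*Abcc3*, which returns conjugated bile acids to blood, read 5.37, 5.80, 5.72 and 5.50 in WT and 5.51, 5.64, 5.63 and 5.66 in KO. The KO samples all lay inside the WT range. The log2 fold change was 0.01 (SE 0.10, 95% interval -0.23 to 0.25, adjusted p = 0.971 from limma), and the dimmer probe gave 0.06 (adjusted p = 0.866).

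**Figure D2:**
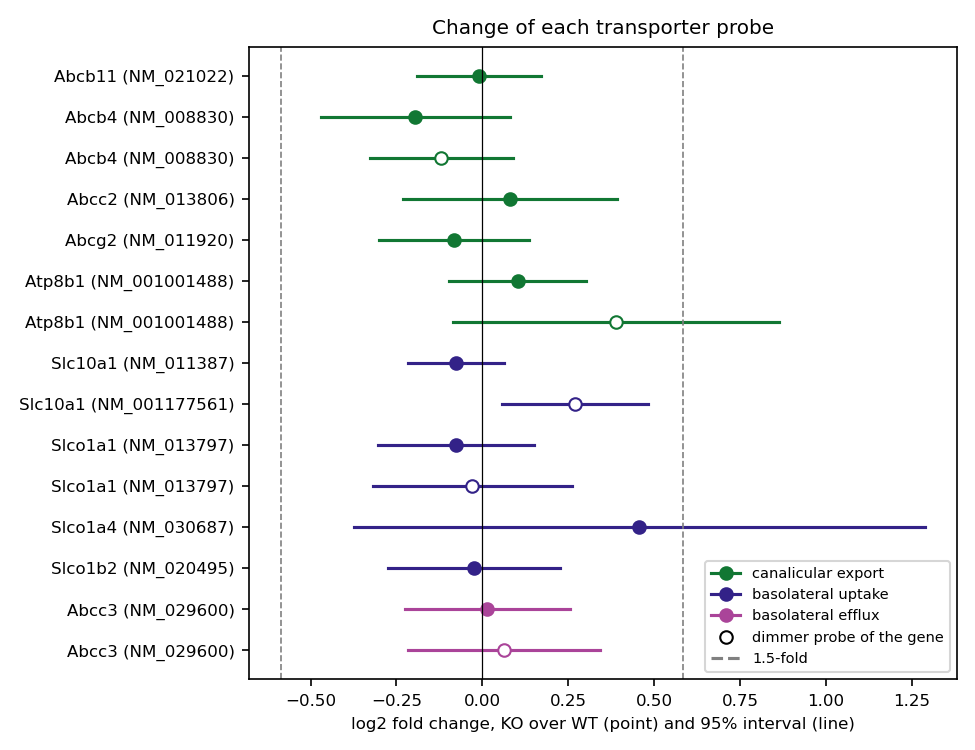
Log2 fold change, KO over WT (points), and its 95% interval (lines) for each of the 15 transporter probes, by role, with filled points for the brightest probe of a gene, open points for dimmer ones and dashed lines at 1.5-fold. All intervals but those of *Slco1a4* and the dimmer *Atp8b1* probe lie between the dashed lines, and only the dimmer *Slc10a1* probe, at 0.27, has an interval that leaves out 0.

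The sequence before the start sites of these genes was searched for motifs of bile acid and stress receptors, although no binding was measured. RefSeq promoter windows of GRCm38.p6, from 250 bases before to 50 after the start site, were searched for 8 of the 10 genes, as 11 windows (3 for *Abcg2* and 2 for *Slc10a1*). *Abcc3* had no window. *Atp8b1* was left out by a filter on its chromosome, whose windows stayed in the shares over all windows. The stretch just before the *Abcb11* start is shown because this gene is a known FXR target. In it the capitals mark TGACCT, the half-site of nuclear receptors, found on the strand of the gene from position -56 (chr2:69342617-69342716, minus strand, positions -100 to -1):
Abcb11: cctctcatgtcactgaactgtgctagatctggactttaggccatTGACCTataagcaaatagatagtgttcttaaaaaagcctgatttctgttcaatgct
The *Abcc2* stretch is shown because ABCC2 is a known target of the oxidative stress factor NRF2. The capitals mark a match to TGACNNNGC, the core of the antioxidant response element, from position -98 (chr19:43782178-43782237, plus strand, positions -130 to -71):
Abcc2: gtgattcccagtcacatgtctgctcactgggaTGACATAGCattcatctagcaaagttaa
On either strand, TGACNNNGC stood in 1 of the 11 windows, that of *Abcc2*, and in 12.4% of all 32851 windows. TGACCT, a search added after the sequences were seen, stood in 7 of 11 windows and in 16.3% of all. TATAAA stood in 5 of 11 windows and 13.6% of all. Its matches began at positions 2 and 42 in 2 *Abcg2* windows and between -234 and -99 in *Slco1b2*, *Slco1a1* and *Slc10a1*. Those of *Slco1a1* and *Slc10a1* were on the strand opposite to the gene. The full inverted repeat of 2 half-sites with 1 base between (the FXR motif, which overlaps the half-site search), its shorter core, the direct repeat with 1 base between, the HNF1 motif and the sterol element TCACNCCAC stood in 0 of 11, beside 0.00913%, 0.0396%, 0.0396%, 0.00913% and 1.24% of all windows. Only exact matches were counted, and the full inverted repeat and its core had them in just 3 and 13 of all 32851 windows. With motifs this rare, 0 of 11 was the likely count for any 11 windows, so it cannot tell whether imperfect repeats are present. In the *Abcb11* stretch shown, the half-site and the letters just before it differ from the full inverted repeat in 1 letter. Near matches were not counted in any window. A match is a description of letters and not a site of binding.

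Other transporters of the hepatocyte held the called genes nearest to these. Of 22 listed, 19 were tested, 1 was called higher and 2 lower in KO, and 6 had an unadjusted p under 0.05, with a median log2 fold change of -0.04. Here and in the lists that follow, the shares over all genes tested were 1.76% called (1.01% higher and 0.754% lower) and 14.0% at an unadjusted p under 0.05, with a median of -0.03. Each of the 3 calls was lost with no filter on dim probes, where the adjusted p was 0.403 for *Slc22a7*, 0.265 for *Abcb1b* and 0.387 for *Slc10a2*. *Slc22a7*, the organic anion transporter OAT2 of the sinusoidal membrane, read 4.10, 4.12, 4.02 and 4.96 in WT and 2.43, 3.89, 2.99 and 3.24 in KO. All KO samples were below all WT samples. The change was -1.16 on the log2 scale (SE 0.32, adjusted p = 0.188 from limma), and the adjusted p stayed under 0.2 in 1 of 8 fits that each left out an array, the one without KO replicate 2 (0.163), rising to between 0.235 and 0.305 in the others.

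*Abcb1b*, a P-glycoprotein that exports drugs at the canalicular membrane, read -1.40, -1.82, -2.27 and -2.10 in WT and -2.43, -2.98, -3.01 and -3.00 in KO. The groups did not overlap. The change was -0.96 (SE 0.21, adjusted p = 0.110 from limma), and the call was lost without WT replicate 2, KO replicate 2 or KO replicate 4, where the adjusted p was 0.229, 0.239 and 0.201. Normexp background correction shrank the change of this dim probe to -0.47, below 1.5-fold. Its paralog *Abcb1a* had a log2 fold change of 0.50 with an adjusted p of 0.375, named after its value was seen, and the difference between the paralogs was not tested.

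*Slc10a2*, the apical sodium-dependent bile acid carrier best known from ileum and cholangiocytes, read 2.58, 1.83, 1.79 and 2.03 in WT and 3.24, 2.53, 3.03 and 2.64 in KO. WT replicate 1 overlapped the KO range and the other 3 WT samples were below it. It was higher in KO by 0.80 (SE 0.22, adjusted p = 0.176 from limma, exact permutation p = 0.0571), and the call held only without WT replicate 1 (adjusted p = 0.116), the other 7 fits without an array giving 0.220 to 0.362. Among 8 cholangiocyte markers 5 were tested and 0 called, with 2 at an unadjusted p under 0.05 (14.0% of all genes), *Slc4a2* and *Sox9* (-0.64, adjusted p = 0.360), and a median of -0.24, while *Krt7*, *Epcam* and *Cftr* did not pass the filter on dim probes. The summed linear signal of the 5 tested, in units of the array's 75th percentile, was 16.9, 21.7, 19.7 and 20.1 in WT and 18.3, 16.0, 16.4 and 16.7 in KO. *Slc4a2*, with the brightest probe among them, had a log2 fold change of -0.24. Of the 4 KO sums, 3 lay below every WT sum. Of 5 gallbladder and intestine markers 3 were tested and 1 was called, *Fabp2*, the one with the brightest probe, which encodes a fatty acid binding protein of enterocytes. It read 5.92, 5.92, 5.84 and 5.46 in WT and 6.81, 6.85, 6.63 and 6.84 in KO, a log2 fold change of 0.99 (adjusted p = 0.0152). *Muc5b* and *Slc5a1* did not pass the filter, and *Lgals4* gave -0.17 (adjusted p = 0.726 from limma). *Vil1*, well above background on 3 WT and 4 KO arrays, passed the filter through KO alone. It gave 0.26 (adjusted p = 0.572 from limma) and -0.00013 under normexp, so no direction is given for it. The summed signal of the 3 tested was 63.6, 63.5, 61.4 and 48.8 in WT and 115.3, 118.3, 102.0 and 117.8 in KO. Most of this sum in every sample was the signal of *Fabp2*, so it follows that gene and not the list, and its part in the *Slc10a2* result was not tested.

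The partner transporters that were not called are given as values. *Slc51b*, the beta subunit of the basolateral bile acid exporter, read -3.79, -4.13, -2.92 and -1.51 in WT and -2.40, -1.81, -1.91 and -1.49 in KO. WT replicate 4 was at the level of the highest KO sample while the other 3 WT samples were below all KO samples. The difference of 1.19 had a wide error (SE 0.52, adjusted p = 0.381 from limma). Without WT replicate 4 it was 1.71 (adjusted p = 0.0920) and called, without WT replicate 2 it was 0.84 (adjusted p = 0.590), and under normexp it was 0.46, below 1.5-fold. Its partner *Slc51a* did not pass the filter. The sterol exporters of the canalicular membrane gave 0.28 for *Abcg5* (adjusted p = 0.546) and 0.03 for *Abcg8* (adjusted p = 0.971). *Abcc4*, a basolateral exporter that takes bile acids with glutathione, gave 0.22 (adjusted p = 0.712), and *Slco3a1*, an organic anion transporter, gave -0.35 (adjusted p = 0.234) with KO samples at or below the WT samples.

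Enzymes that make bile acids included 1 called gene. Of 15 genes for synthesis and conjugation, all tested, 0 were called higher and 1 lower, beside 1.01% and 0.754% of all genes, with a median of -0.02. *Cyp7b1*, the oxysterol hydroxylase of the alternative pathway, read 7.16, 6.74, 6.93 and 7.33 in WT and 5.82, 6.09, 4.04 and 6.03 in KO. The groups did not overlap and KO replicate 3 was far below the other KO samples. The change was -1.55 (SE 0.43, adjusted p = 0.188 from limma), and a dimmer probe gave -1.62 (adjusted p = 0.208). Without KO replicate 3 it was -1.06 with a smaller adjusted p of 0.0533, without any 1 of the other 7 arrays the adjusted p was between 0.217 and 0.348, past the threshold, and with no filter on dim probes it was 0.403. *Cyp7a1*, the rate-limiting enzyme of the classic pathway, read 2.75, 1.35, 1.20 and 1.90 in WT and 2.23, 2.07, 0.84 and 1.88 in KO. Individual mice spread widely within each genotype, and the log2 fold change of -0.05 (SE 0.40, 95% interval -0.97 to 0.87) has no direction. *Cyp8b1*, which sets the share of cholic acid, gave -0.19 (adjusted p = 0.786), *Cyp27a1*, the mitochondrial side-chain hydroxylase, 0.14 (adjusted p = 0.510), and *Baat*, which conjugates bile acids with taurine, 0.19 (adjusted p = 0.252). *Cyp39a1*, an oxysterol hydroxylase, gave 0.48 (adjusted p = 0.419) and *Akr1d1*, which reduces the steroid ring, 0.33 (adjusted p = 0.422).

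Among 16 regulators of the transporters, 15 were tested and 0 were called by limma, beside 1.76% of all genes, 3 had an unadjusted p under 0.05, beside 14.0%, and the median was -0.07. *Nr1h4*, which encodes FXR, read 5.62, 5.23, 5.40 and 5.68 in WT and 5.55, 5.47, 5.20 and 5.49 in KO, with fully mixed groups and a log2 fold change of -0.05 (SE 0.12, adjusted p = 0.887). *Nr0b2*, the FXR target SHP, read 2.24, 1.24, 1.76 and 1.87 in WT and 1.82, 1.87, 1.46 and 2.01 in KO. The KO samples lay inside the WT range and the change was 0.01 (SE 0.21, 95% interval -0.47 to 0.49). *Fgfr4*, the hepatic receptor for the ileal hormone FGF15, gave -0.15 (adjusted p = 0.640) and *Nr1i3*, which encodes CAR, 0.08 (adjusted p = 0.878). The genes with the smallest p were *Hnf4a*, a master regulator of hepatocyte genes, at -0.33 (adjusted p = 0.276), *Nfe2l2*, which encodes NRF2, at 0.33 (adjusted p = 0.319), *Rxra*, the common partner of these receptors, at -0.16 (adjusted p = 0.356) and *Nr1i2*, which encodes PXR, at -0.17 (adjusted p = 0.483).

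Genes of the canalicular membrane and of hepatocyte polarity, which hold transporters in place, included 1 called gene of 18 tested, higher in KO (1.01% of all genes), with 4 at an unadjusted p under 0.05 (14.0% of all genes) and a median of 0.03. This gene was *Cldn2*, a pore-forming claudin of the tight junctions that seal the canaliculus. It read 2.48, 2.51, 2.31 and 2.43 in WT and 3.09, 3.02, 3.07 and 2.98 in KO. Every KO sample was above every WT sample, with a log2 fold change of 0.61 (SE 0.07, adjusted p = 0.0143 from limma). The size was close to 1.5-fold, and the call was lost without WT replicate 3 (0.57), under median scaling (0.57), under normexp (0.50) and on the mean of its probes (0.56), where the adjusted p was 0.0479, 0.0249, 0.0226 and 0.0291. A dimmer probe gave 0.51 (adjusted p = 0.0848). *Pdzk1*, a scaffold for apical transporters, gave 0.26 (adjusted p = 0.191, under 1.5-fold), and *Cldn1*, a sealing claudin, 0.26 (adjusted p = 0.217).

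**Figure D3:**
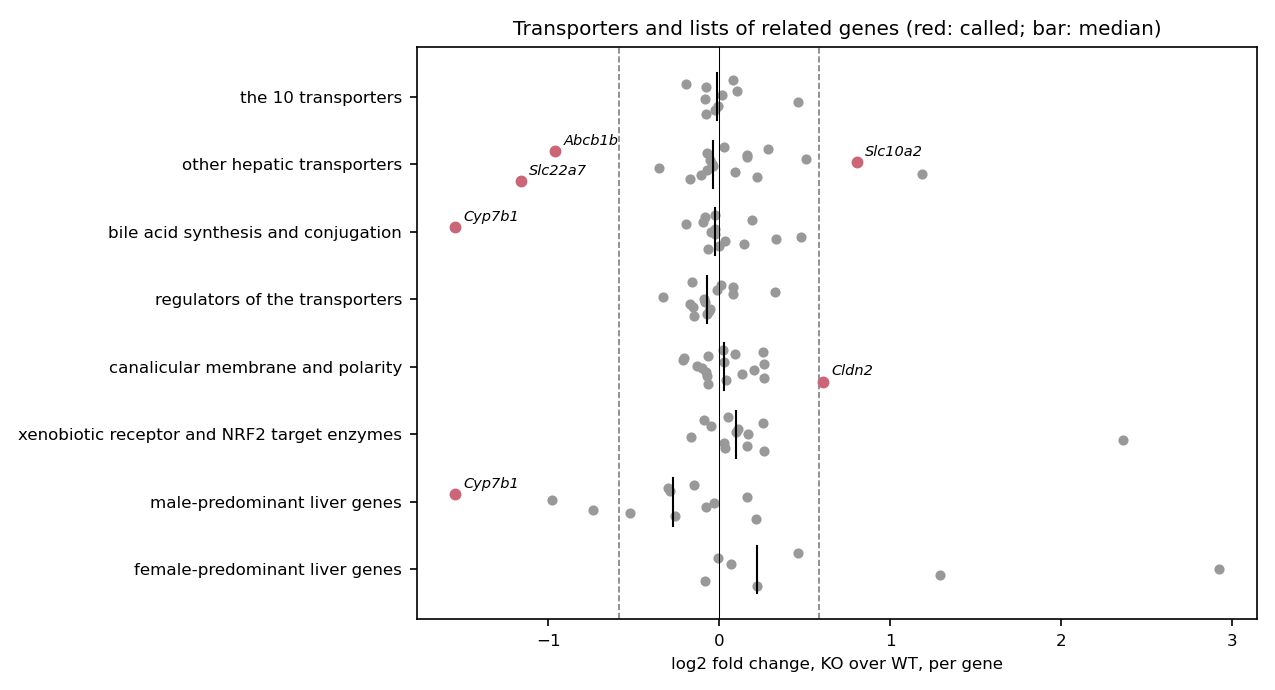
Log2 fold change, KO over WT (horizontal axis), of each gene tested in the 10 transporters and 7 lists of related genes, with red points for called genes, bars for the median of a list and dashed lines at 1.5-fold. The 10 transporters spread from -0.19 to 0.46 with none called, and *Slc22a7*, *Abcb1b*, *Slc10a2*, *Cyp7b1* (in 2 lists) and *Cldn2* are the called genes.

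The next list held enzymes induced by xenobiotic receptors, among them CAR and PXR, or by NRF2, regulators named above for *Slco1a4* and *Abcc2*. Of 15, 13 were tested, 0 were called by limma, beside 1.76% of all genes, and 2 had an unadjusted p under 0.05, beside 14.0%, with a median of 0.10. *Cyp2b10*, the classic CAR target, read -1.80, 0.34, 1.12 and 0.53 in WT and 1.11, 2.20, 4.23 and 2.10 in KO. KO replicate 1 was just below WT replicate 3, and the others did not overlap. The log2 fold change was 2.36 (SE 0.78, 95% interval 0.58 to 4.14), with an adjusted p of 0.255 and an exact permutation p of 0.0571. Settings that called the gene included normexp (adjusted p = 0.192) and the mean of its probes (0.191). Without WT replicate 1 the change was 1.75 (adjusted p = 0.351) and without KO replicate 3 it was also 1.75 (adjusted p = 0.354). The NRF2 targets gave 0.26 for *Srxn1* (adjusted p = 0.344), 0.16 for *Gstm3* (adjusted p = 0.568) and 0.26 for *Nqo1* (adjusted p = 0.613).

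*Slco1a1* and *Slco1a4* are also among the genes that differ between the sexes in mouse liver, and all mice here were male. Of 12 male-predominant genes 0 were called higher and 1 lower, *Cyp7b1*, with 3 at an unadjusted p under 0.05 and a median of -0.27. Of 15 female-predominant genes 7 were tested and 0 called by limma, with 2 at an unadjusted p under 0.05 and a median of 0.22. The shares of all genes were 1.76% called and 14.0% at an unadjusted p under 0.05. *Slco1a1* at -0.08 lay above the median of the first list. Male-predominant genes with the next smallest p were *Elovl3*, a fatty acid elongase, at -0.98 (adjusted p = 0.280), *Cspg5* at -0.52 (adjusted p = 0.373) and *Cyp2d9*, a testosterone hydroxylase, at -0.30 (adjusted p = 0.452). In that list 10 changes were negative, among them *Mup20* (-0.15) and *Nudt7* (-0.03), and 2 positive, *Cyp4a12a* (0.16) and *Cyp4a12b* (0.21). In the female-predominant list 5 were positive, among them *Cyp17a1* (0.07), and 2 negative, *Cyp2a4* (-0.08) and *Cyp3a41a* (-0.01). *Cyp2b9*, a female-predominant P450, read -3.47, -1.01, -0.36 and -1.10 in WT and 0.02, 0.81, 4.21 and 0.72 in KO. Its groups did not overlap, KO replicate 3 was far above the rest, and the log2 fold change was 2.92 (SE 0.99, adjusted p = 0.263 from limma). It was 2.00 without KO replicate 3 and 2.26 without WT replicate 1. KO replicate 3 was also the lowest KO sample for *Cyp7b1* (4.04), *Elovl3* (3.96) and *Cyp2d9* (6.17) and the highest for *Cyp2b10* (4.23). Without it the change of *Elovl3* was -0.62 and that of *Cyp2d9* was -0.14, and the part of this sample in the medians of the lists was not tested. *Acot3*, a peroxisomal thioesterase, gave 1.29 (adjusted p = 0.201), just short of a call, and the settings that called it included normexp (0.189), quantile normalization (0.195), trend and robust options in eBayes (0.183), the mean of probes (0.179) and leaving out WT replicate 4 (0.196). As for *Slco1a4*, replicate 1 was the lowest mouse of each genotype for *Cyp2b10* and *Cyp2b9*.

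**Figure D4:**
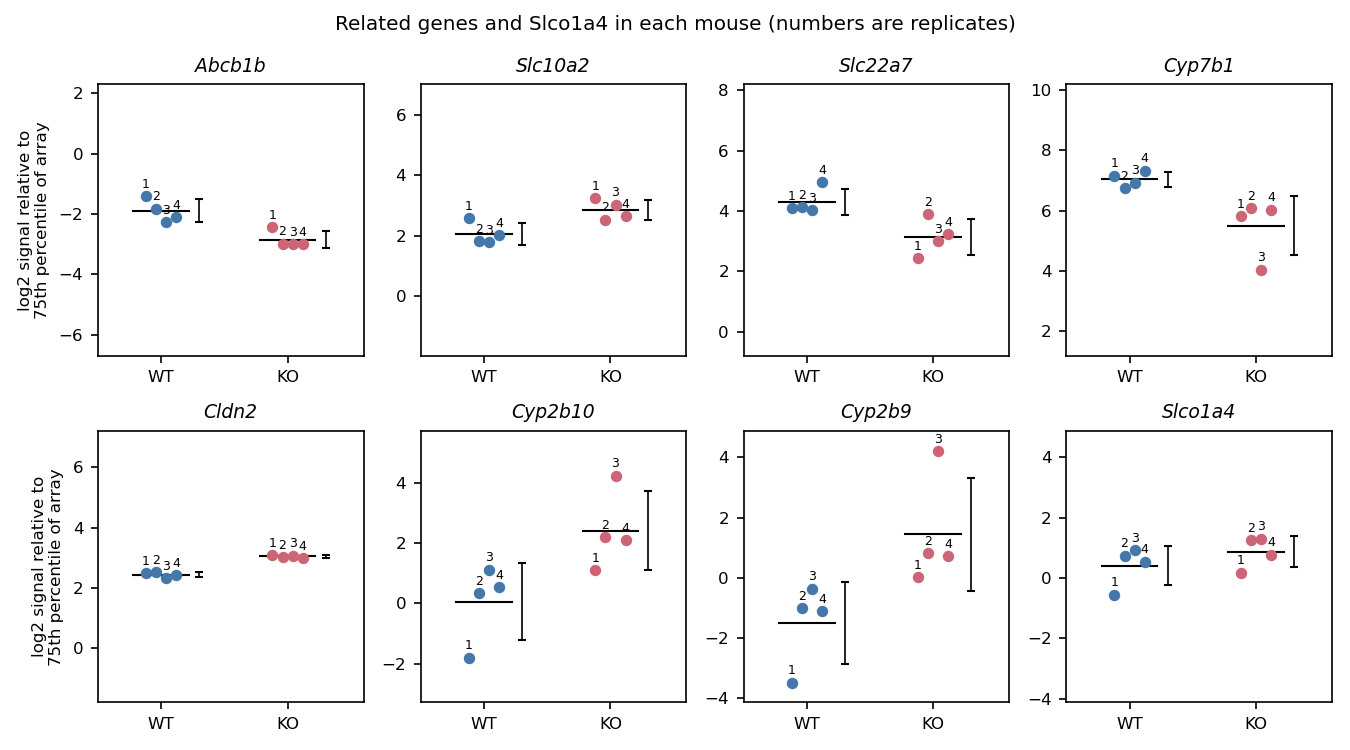
Log2 signal over the array's 75th percentile (vertical axis) in each of 4 WT and 4 KO livers for 7 related genes and *Slco1a4*, with points as mice labelled by replicate, lines as means and bars as 1 SD. The KO points of *Cldn2* lie between 2.98 and 3.09, above all WT points, whereas for *Cyp2b10*, *Cyp2b9* and *Slco1a4* replicate 1 is the lowest mouse in both genotypes.

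The tissue matched its label. All 8 hepatocyte markers passed the filter, 0 were called and their median log2 fold change was -0.03. Their summed linear signal was between 5503 and 6044 in WT and between 5546 and 5800 in KO, and *Alb*, with the brightest probe, gave -0.01. Endothelial, Kupffer cell and stellate cell markers (6 of 6 tested in each) had 0 calls and medians of 0.01, -0.11 and -0.10, with 1, 0 and 2 at an unadjusted p under 0.05 (14.0% of all genes). These were *Lyve1* at -0.52 (adjusted p = 0.314) among the endothelial markers and, in opposite directions, *Lrat* at 0.50 (adjusted p = 0.272) and *Pdgfrb* at -0.45 (adjusted p = 0.311) among those of stellate cells. Of 4 erythroid markers 3 were tested with 0 calls, 1 at an unadjusted p under 0.05 (*Alas2*, -0.40) and a median of -0.16.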

How the data were processed

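Liver RNA of 4 *Agpat3* WT and 4 *Agpat3* KO mice was labelled with Cy3 and measured on 8 one-color Agilent arrays on 1 slide, read in 1 scan. For each array the authors deposited the processed intensity of every spot from Feature Extraction 10.7.1.1, after background correction. They also deposited a table of log2 values, which closely matched log2 intensity minus the log2 of the array's 75th percentile. The median difference was 0.0029 to 0.0085 over the arrays, and 99.86% to 99.93% of values lay within 0.01. The 75th percentile was between 261 and 309 and the median local background between 27 and 32 intensity units. The number of arrays limits the precision.

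Control and outlier spots were left out, log2 processed intensity was scaled to the 75th percentile, and repeat spots were averaged. The filter on dim probes asked that all 4 arrays of at least 1 genotype be well above background. Kept probes were tested with limma 3.58.1 in R 4.3.3 (lmFit, eBayes, two-sided), and exact two-sided permutation tests used all 70 assignments of the mice. The thresholds follow a legend of the study. Whether its p was adjusted, and by which test, is not given in the sources used here. Those sources also do not state whether mice were littermates. Of 56605 probes, 32994 were named through transcript accessions in a RefSeq table of GRCm38.p6, and the array files name another build. The test was tried on simulated data.

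The 10 genes, the lists, the motifs and the tests were chosen with earlier results of these data known. Genes named were the 10 transporters, *Agpat3*, the called genes of each list with those of smallest p up to 4, and the 3 genes most like the transporter with the smallest p and the one with the largest change. *Slc51b*, *Abcg5*, *Abcg8*, *Tmem30a*, *Cyp7a1*, *Cyp8b1*, *Cyp27a1*, *Nr1h4*, *Nr0b2*, *Fgfr4* and *Nr1i3* were added by role, and the marker genes singled out were added, after their values were seen. Some genes covered by these rules are not reported here. The alternatives are named in the closing section.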

Additional observations from a re-analysis of the deposited data

Results flagged for a closer look

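In 9 of 108 groups of 4 samples examined, 1 sample stood apart from the other 3, where chance alone marks about 1 in 20 groups. Among the transporters this was WT replicate 4 for *Slco1a1*, at 3.76 with the other WT samples between 3.92 and 3.94. Among related transporters, KO replicate 1 for *Abcb1b* was at -2.43 (others -3.01 to -2.98), WT replicate 4 for *Slc22a7* at 4.96 (others 4.02 to 4.12) and WT replicate 4 for *Abcg8* at 4.93 (others 4.17 to 4.20). For *Cyp7b1*, KO replicate 3 was at 4.04 with the others between 5.82 and 6.09, and the same sample was low for *Cyp2d9*, at 6.17 (others 6.75 to 6.85). WT replicate 1 was low for *Akr1d1*, at 0.35 (others 0.87 to 0.95), and for *Nqo1*, at -2.00 (others -1.46 to -1.35). KO replicate 2 was low for *Cldn1*, at 3.65 (others 3.78 to 3.80).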

How the results depend on the processing

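The count of called transporters was 0 under every alternative run, and of 195 transporter changes computed under alternatives 18 changed sign and 0 were called. Changes of sign included 0.041 for *Abcb11*, 0.046 for *Slc10a1* and 0.038 for *Slco1b2* under quantile normalization. Others were 0.031 for *Slco1b2* and -0.017 for *Abcc3* under normexp, and -0.024 for *Abcc3* under median scaling. *Slc10a1* also changed sign on the mean of its probes (0.097) and on its dimmer probe alone (0.27, 95% interval 0.06 to 0.48). With each array left out in turn, the change ran from -0.065 to 0.025 for *Abcb11*, -0.013 to 0.19 for *Abcc2*, -0.10 to 0.048 for *Slco1b2* and -0.063 to 0.082 for *Abcc3*. It kept its sign for *Abcb4* (-0.25 to -0.089), *Abcg2* (-0.14 to -0.024), *Atp8b1* (0.051 to 0.14) and *Slco1a1* (-0.16 to -0.033). Among related genes, median scaling gave -0.0086 for *Abcg8* and -0.027 for *Nr0b2*, normexp -0.014 for *Nr0b2*, and the mean of probes 0.026 for *Tmem30a*. Leaving out arrays gave -0.085 to 0.21 for *Abcg8*, -0.25 to 0.27 for *Cyp7a1*, -0.31 to 0.035 for *Cyp8b1*, -0.14 to 0.019 for *Nr1h4*, -0.17 to 0.16 for *Nr0b2* and -0.011 to 0.20 for *Nr1i3*.

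Of all probes 484 were called, and 245 under normexp, 253 with no filter on dim probes, 117 at an adjusted p under 0.05, 1202 with no minimum fold change, 929 by an unpaired t test on its unadjusted p and 269 after Benjamini-Hochberg. That last setting also ended the calls of *Slc22a7* (0.293), *Abcb1b* (0.202), *Slc10a2* (0.276) and *Cyp7b1* (0.295). Without each array the count was between 250 and 610, lowest without WT replicate 3. With no filter the calls fell to 0 in the other transporters, in bile acid synthesis and in the male-predominant list, where more probes were adjusted over. Normexp left 0 in the canalicular list and gave 1 in the xenobiotic and 1 in the female-predominant list, and the cause was not tested. Without each array the calls were 0 to 2 (other transporters), and 0 to 1 in bile acid synthesis, the canalicular list and both sex-predominant lists. Quantile and median normalization, the deposited values, a stricter filter, outlier spots kept and eBayes with trend and robust options kept the overall count within 1.5 times. For normexp the median spot signal served, as no mean one was in the scanner output.

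Deviations of same-numbered samples correlated at 0.33, -0.11, 0.10 and 0.32, and 3 of 4 WT samples correlated best with their own number. No label says that a number marks a shared origin and 1 of the 4 pairs correlated below 0, so the numbers were not taken as pairs, although the other 3 hint at one. With the replicate number as a block 592 probes were called, 0 of them of transporters, with 1 call in the xenobiotic, 2 in the male-predominant and 2 in the female-predominant list. The genes it added were *Cyp2b10* (adjusted p = 0.0783), *Elovl3* (0.153), *Cyp2b9* (0.121) and *Acot3* (0.153). The block gave *Slco1a4* an adjusted p of 0.162 at the same change of 0.46, under 1.5-fold.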

Other observations

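Over 14057 genes compared, the genes whose centred log2 signals over the 8 livers lay closest to those of *Abcb4* were *Kdm7a*, *Rcl1* and *Taf3*, with mean squared differences of 0.00368, 0.00397 and 0.00424. For *Slco1a4* they were *Per3*, *Aldoc* and *Gstt2*, with mean squared differences of 0.0261, 0.0450 and 0.0526 and log2 fold changes of 0.70, 0.36 and 0.36.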
